A study of Mus musculus with 8 samples.

Results

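The genes described here encode the protein tyrosine phosphatases and dual-specificity phosphatases of the embryonic LGE, the lateral ganglionic eminence, which gives rise to striatal projection neurons. They are the genes of the deposited table whose symbols begin with Ptpr (receptor type, 19 genes), Ptpn (non-receptor type, 14 genes) or Dusp (dual-specificity type, 22 genes) followed by their letter or number. Ptprc and Ptpn5 are left out by the same rule, which leaves 55 of the 15705 genes. All 55 passed the filter on low values, so 55 of 55 entered the comparison. Poly(A) RNA was sequenced from LGE of E18.5 mouse embryos of 2 genotypes, with 4 libraries each. The cKO libraries came from Dlx1-Cre; Isl1 flx/flx embryos, in which Cre under Dlx1 control deletes the LIM-homeodomain gene Isl1 in cells with Dlx1-Cre activity, and the control libraries from littermates with Isl1 flx/flx and no Cre. Both groups carry floxed alleles and only the cKO carries Cre, so effects of Cre itself and of the deletion of Isl1 cannot be told apart. The tissue is a whole dissected region, so fewer cells of a type and less RNA per cell cannot be told apart either.

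Protein tyrosine phosphatases remove phosphate from tyrosine and oppose tyrosine kinases. Receptor types carry extracellular domains that bind neighbouring cells, contactins, heparan sulphate proteoglycans or synaptic adhesion proteins, and in the developing brain they act in neurite growth, axon guidance and synapse formation. Many dual-specificity phosphatases remove phosphate from both the threonine and the tyrosine of MAP kinases, and several of these are induced by the signal they terminate.

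Values are the authors' adjusted read values per gene and library, scaled and rounded before deposition, and RPKM (the authors' values scaled for gene length and library size) is used where levels of different genes are compared. Isl1 had values of 4930, 5377, 5618 and 5971 in the libraries labelled cKO, against 3777, 3692, 4186 and 3517 in those labelled control. This is higher, not lower, in the libraries labelled cKO (log2 fold change 0.53 ± 0.06, limma adjusted p = 0.000338). The value covers all of Isl1, so it does not show whether the floxed part was lost, and cKO and control below mean the libraries so labelled. Control replicate 3 and cKO replicate 4 stood apart from the rest in markers of pallial neurons, which lie outside the LGE. The summed RPKM of 12 such markers was 19.8 in cKO replicate 4 and 14.5 in control replicate 3. The other cKO libraries lay between 27.4 and 35.9, and the other controls between 30.1 and 34.5. Among striatonigral (direct pathway) markers 6 of 11 fell and 1, Isl1 itself, rose (63.6%, beside 6.66% of all tested genes). Their median log2 fold change was -0.333, beside 0.006 for all tested genes. The other 4 did not pass, with log2 fold changes of -0.20 for Drd1, -0.01 for Ebf1, -0.22 for Eya1 and -0.11 for Sox8. Of 15 markers of both kinds of striatal projection neuron, 5 fell and 3 rose, and none of these markers was at 0 in the files.

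In the cKO, 4 phosphatase genes rose and 4 fell (limma, Benjamini-Hochberg adjusted p under 0.05 over 15698 genes), and 47 did not pass. Ptprk, Ptpn6, Ptpre and Ptprm were higher, while Ptprt, Dusp14, Dusp26 and Ptprg were lower. The 8 genes are 14.5% of the members, beside 6.66% of all tested genes. By direction, 4 of 55 members rose beside 2.87% of all tested genes, and 4 of 55 fell beside 3.78%. The median log2 fold change was 0.01 over the members and 0.01 over all tested genes, and 29 of the 55 had an absolute log2 fold change under 0.1. Groups were fully separate in 12 members, 5 with cKO above and 7 with cKO below, which is 21.8% of them, beside 12.7% of all tested genes. By the adjusted p of the authors' deposited table all of these but Ptprm passed, which makes 7 members, beside 6.55% of its genes. Leaving out cKO replicate 1 or 4, or control replicate 1, 3 or 4, left 5 members past the limma test. Without control replicate 3 and cKO replicate 4 together, 4 members passed, namely Ptprk, Ptprt, Ptprg and Dusp26.

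**Figure D1:**
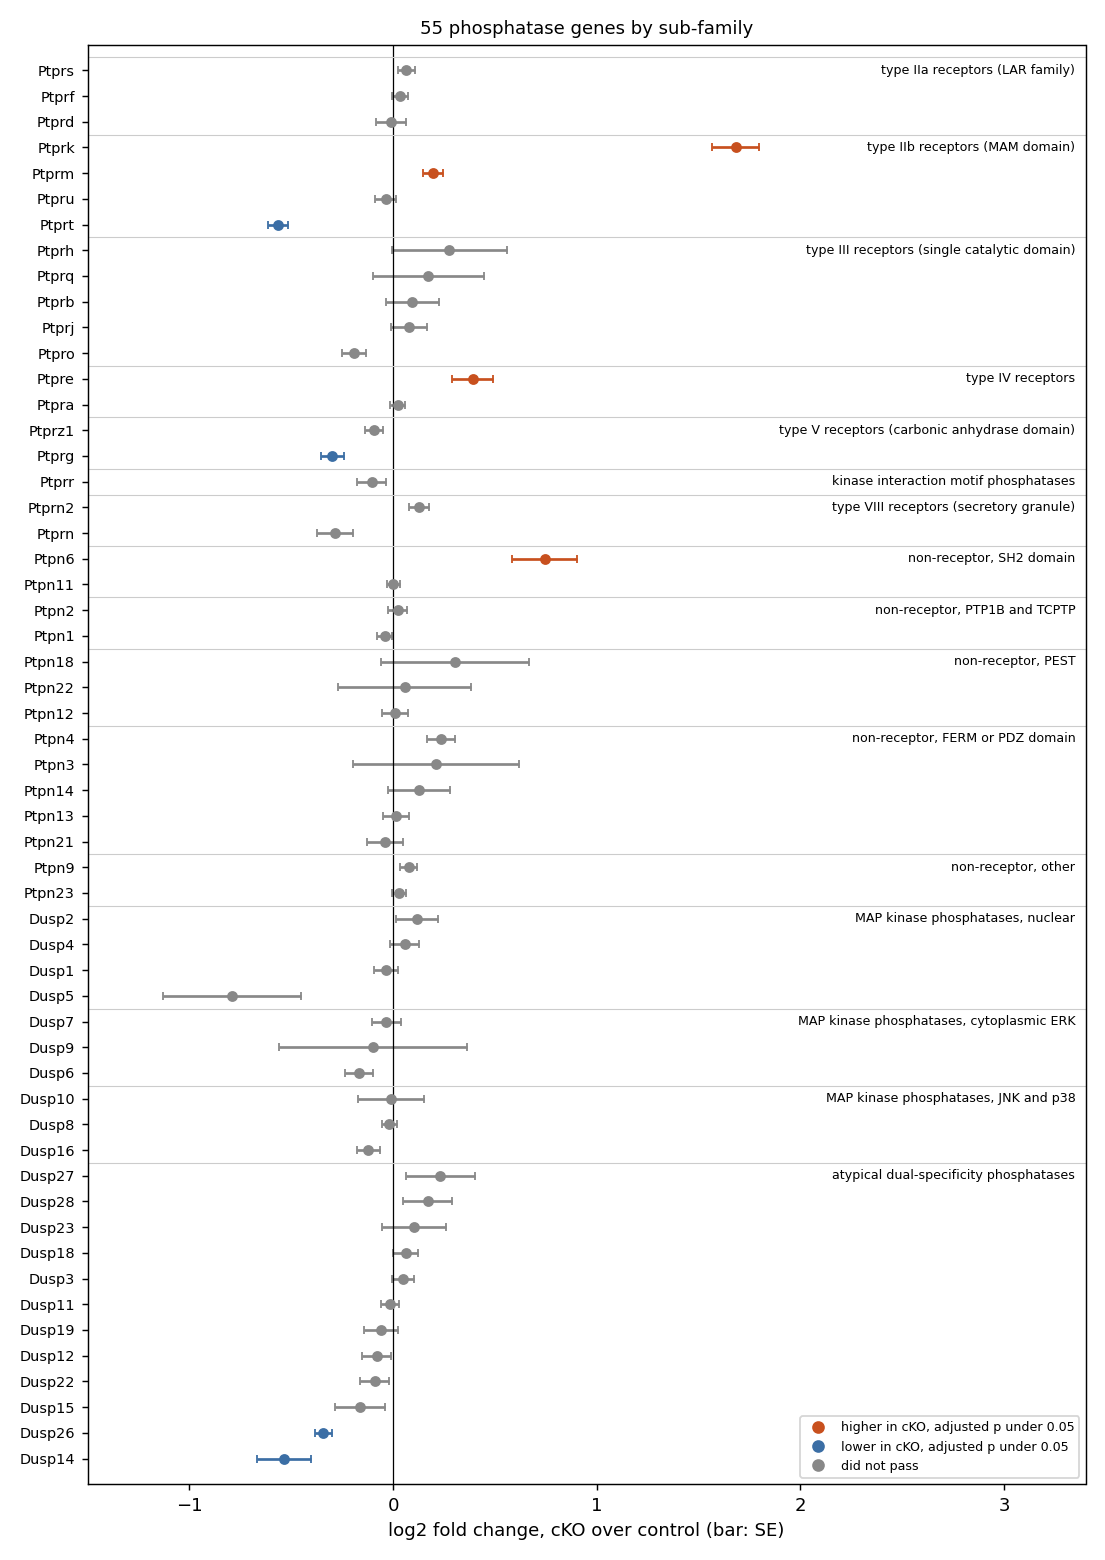
Log2 fold change (cKO over control, x axis) of the 55 phosphatase genes by sub-family, with bars for the SE. Orange points rose and blue points fell at a limma adjusted p under 0.05, and grey points did not pass. Ptprk lies at 1.68, and most points lie close to 0.

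Type IIb receptors carry an extracellular MAM domain, and Ptprk, Ptprm and Ptprt are known to bind the same molecule on a neighbouring cell. This sub-family held the most called genes, with 2 of 4 higher and 1 lower in the cKO (75%, beside 6.66% of all tested genes). That share rests on only 4 genes, and the call of Ptprm was lost in 13 of 20 alternatives. Promoter sequence of these 4 genes is shown first, because members of a single family moved in different directions, and that of Dusp1 is added as a phosphatase gene of the immediate early class. Each sequence runs 5′ to 3′ from 250 bases before to 50 bases after the annotated start (RefSeq, GRCm38.p6). Ptprk lies at chr10:28074570-28074869, plus strand. Ptprm lies at chr17:67354410-67354709, minus strand. Ptprt lies at chr2:162661098-162661397, minus strand. Ptpru lies at chr4:131838229-131838528, minus strand, and Dusp1 at chr17:26508423-26508722, minus strand. Capitals mark TGACGT or its reverse complement ACGTCA, the core of the cyclic AMP response element, whose full form TGACGTCA holds both overlapping.
Ptprk: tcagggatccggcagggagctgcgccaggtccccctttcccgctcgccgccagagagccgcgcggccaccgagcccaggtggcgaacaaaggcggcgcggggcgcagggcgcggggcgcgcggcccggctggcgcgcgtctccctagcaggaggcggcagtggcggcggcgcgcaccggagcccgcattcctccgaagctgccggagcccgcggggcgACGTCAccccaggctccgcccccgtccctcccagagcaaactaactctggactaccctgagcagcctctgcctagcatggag
Ptprm: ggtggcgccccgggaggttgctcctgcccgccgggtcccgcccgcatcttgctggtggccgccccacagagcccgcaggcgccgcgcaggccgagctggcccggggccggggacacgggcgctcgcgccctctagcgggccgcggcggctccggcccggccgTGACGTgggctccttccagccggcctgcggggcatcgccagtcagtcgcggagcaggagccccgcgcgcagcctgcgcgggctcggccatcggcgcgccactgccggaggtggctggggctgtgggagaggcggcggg
Ptprt: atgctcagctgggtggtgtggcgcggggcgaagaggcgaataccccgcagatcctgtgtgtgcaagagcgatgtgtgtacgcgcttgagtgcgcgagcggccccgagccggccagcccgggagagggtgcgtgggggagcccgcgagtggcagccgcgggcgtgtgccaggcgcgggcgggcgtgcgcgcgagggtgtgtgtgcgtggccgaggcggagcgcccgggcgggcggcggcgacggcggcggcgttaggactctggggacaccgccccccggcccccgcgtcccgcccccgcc
Ptpru: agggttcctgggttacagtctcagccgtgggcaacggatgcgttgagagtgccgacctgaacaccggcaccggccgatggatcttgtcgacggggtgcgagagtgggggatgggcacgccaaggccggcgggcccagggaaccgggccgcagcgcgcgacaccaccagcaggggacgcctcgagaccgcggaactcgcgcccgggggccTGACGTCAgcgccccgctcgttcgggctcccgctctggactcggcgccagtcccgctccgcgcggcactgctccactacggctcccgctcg
Dusp1: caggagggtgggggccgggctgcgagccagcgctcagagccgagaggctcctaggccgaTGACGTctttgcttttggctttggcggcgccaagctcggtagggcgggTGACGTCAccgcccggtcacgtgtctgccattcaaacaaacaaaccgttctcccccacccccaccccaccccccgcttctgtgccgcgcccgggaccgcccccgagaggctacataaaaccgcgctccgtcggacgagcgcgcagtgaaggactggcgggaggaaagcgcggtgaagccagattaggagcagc

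Letters of the response element core stood in the promoters of Ptprk, Ptprm and Ptpru and not in that of Ptprt. Of the other called members with a promoter, Ptprg, which fell, held the core. Ptpn6 and Ptpre, which rose, and Dusp14, which fell, did not. The full TGACGTCA stood in those of Ptpru and Dusp1. Promoters were found for 45 of the 55 members (56 promoters), and Dusp4, Dusp9, Dusp15, Dusp19, Dusp26, Ptpn2, Ptpn12, Ptprb, Ptprd and Ptprq were not among them. On either strand TGACGT was present in 10 of the 56, beside 7.51% of all 32851 promoters of the same length, and TGACGTCA in 5, beside 1.79%. CTAATG, a core bound by LIM-homeodomain proteins such as Isl1, was present in 0 of the 56, beside 7.36% of all promoters. TAATTA, a general homeodomain core, was likewise present in 0, beside 5.29%. Among the rest of the 9 motifs searched on both strands, TAATTG was found in 4 member promoters (8% of all promoters), TAATGG in 1 (7.73%), CATTTG in 6 (13.7%), TATAAA in 2 (3.57% of member and 13.6% of all promoters) and CANNTG, which includes CATTTG, in 36 (72.3%). The windows are rich in G and C, with 75% in Ptprk, 80.7% in Ptprm, 77.3% in Ptprt and 72.3% in Ptpru, and no statement about binding follows from a match or its absence.

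Ptprk, on chromosome 10 (28074820 to 28597397, plus strand, GRCm38), had the largest change of the 55 members. Values were 874, 878, 756 and 881 in the cKO libraries, against 265, 318, 204 and 277 in the controls. Every cKO value was far above every control value, and cKO replicate 3 lay apart below the other cKO libraries. The mean was 847 ± 60.9 in the cKO and 266 ± 47.2 in the controls (SD, n = 4 each), a 3.19-fold difference of means. Its log2 fold change was 1.68 ± 0.11 (SE), with a limma adjusted p of 4.13e-06, and it lay between 1.54 and 1.77 in all 20 alternative settings. The nearest tested genes, Lama2 (0.52, adjusted p = 0.0713) and Soga3 (0.06, adjusted p = 0.543, both limma), did not pass.

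Ptprt, a receptor known mainly from brain, went the other way. It is encoded on chromosome 2 (161521990 to 162661147, minus strand). The cKO libraries held 2785, 2428, 2397 and 2582, against 3820, 3707, 3641 and 3896 in the controls, with no overlap between groups. The means were 2548 ± 178 in the cKO and 3766 ± 114 in the controls (SD, n = 4 each). The log2 fold change was -0.57 ± 0.05 (SE; limma adjusted p = 2.78e-05) and stayed between -0.61 and -0.54 in the 20 alternatives. A transcript that lies 16 bases beyond the start of Ptprt, 9430021M05Rik, also fell, with means of 46.3 ± 6.60 in the cKO and 73.3 ± 2.63 in the controls (SD, n = 4 each; log2 fold change -0.66 ± 0.13, limma adjusted p = 0.0111). Chd6, the nearest tested gene on the other side, did not pass (0.08, limma adjusted p = 0.454).

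Ptprm (chromosome 17, 66666947 to 67354457, minus strand) rose by less. Its values were 3377, 2911, 2919 and 3091 in the cKO, against 2733, 2575, 2652 and 2768 in the controls. The groups were separate, and cKO replicate 1 was the highest library. The log2 fold change was 0.19 ± 0.05 (SE; limma adjusted p = 0.0382). The call was lost without cKO replicate 1 or 4 or any 1 of the 4 control replicates (limma adjusted p between 0.0533 and 0.102), with other scalings (0.0658 and 0.068) and in the authors' deposited table (0.12). In the annotation 5.18% of its exon bases are shared with a processed pseudogene on the same strand. Ptpru, the fourth MAM receptor, had means of 709 ± 35.3 in the cKO and 727 ± 27.1 in the controls (SD, n = 4 each; log2 fold change -0.04 ± 0.05, limma adjusted p = 0.778).

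The sum of the 4 MAM receptors moved less than their make-up. Summed RPKM was 42.3 ± 2.54 in the cKO and 40.0 ± 1.46 in the controls (SD, n = 4 each), with overlapping ranges of 40.4 to 45.9 and 38.7 to 41.6. Of that sum, Ptprk made up 13.4% ± 0.89 in the cKO and 4.46% ± 0.78 in the controls. Ptprt made up 20.4% ± 0.20 in the cKO and 32.02% ± 0.21 in the controls. Ptprm made up 53.7% ± 0.63 in the cKO and 49.9% ± 0.87 in the controls, and Ptpru 12.6% ± 0.75 and 13.7% ± 0.56 (SD, n = 4 each, cKO first). These shares follow from the values above and are no separate evidence.

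**Figure D2:**
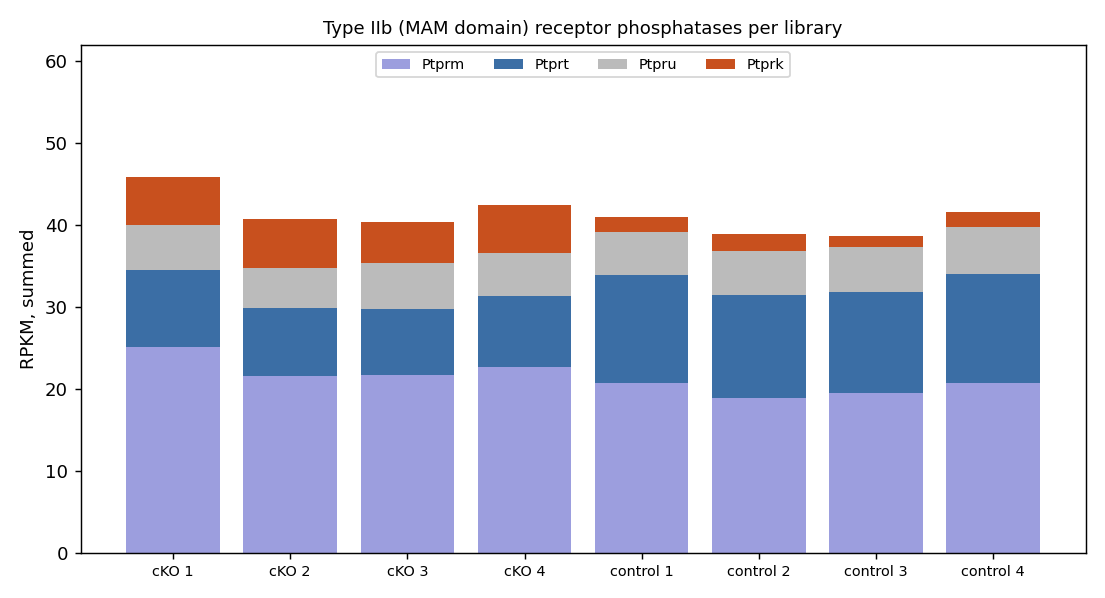
Summed RPKM (y axis) of the 4 type IIb receptor phosphatases in each library (x axis), cKO at left and control at right, with no replicate averaging. The Ptprk segment is taller and the Ptprt segment shorter in every cKO library than in any control, while the totals overlap.

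Type V receptors have a carbonic anhydrase-like domain that binds contactins, and 1 of the 2 members fell. Ptprg (chromosome 14, 11553532 to 12242041, plus strand) held 1932, 1737, 1719 and 1961 in the cKO, against 2234, 2380, 2097 and 2319 in the controls. Every cKO value was below every control value. The log2 fold change was -0.30 ± 0.06 (SE; limma adjusted p = 0.00673), and the call held in the 20 alternatives, with adjusted p up to 0.0414. Both nearest tested neighbours, Fhit at a distance of 391497 bases and 3830406C13Rik at 42132 bases, were lower too. The nearest tested neighbours of Ptprm, Dusp26, Dusp14, Ptpn6 and Ptpre did not pass on either side. Fhit had means of 69.0 ± 3.46 in the cKO and 95.8 ± 6.18 in the controls (SD, n = 4 each), a log2 fold change of -0.47 ± 0.11 (limma adjusted p = 0.0219). The transcript 3830406C13Rik had 448 ± 16.2 in the cKO and 587 ± 33.8 in the controls (SD, n = 4 each), a log2 fold change of -0.39 ± 0.06 (limma adjusted p = 0.00152). Ptprz1, a receptor of radial glia and oligodendrocyte precursors, had values of 19348, 17734, 17664 and 18294 in the cKO, against 20622, 18792, 18729 and 19827 in the controls. These overlapped, and its log2 fold change was -0.09 ± 0.04 (limma adjusted p = 0.28). The summed RPKM of 12 astroglial and oligodendrocyte lineage markers was 1272 to 1534 in the cKO and 1501 to 1619 in the controls, none of them at 0. A single marker, Fabp7, made up most of that sum, with a mean of 1272 RPKM in the cKO and 1388 in the controls. The part of these cells in the Ptprz1 value was not tested.

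Of 29 ligands and partners of receptor phosphatases, contactins included, 1 rose and 4 fell (17.2%, beside 6.66% of all tested genes), with a median log2 fold change of -0.004 beside 0.006 for all tested genes. Cntn3, a contactin bound by Ptprg, had values of 68, 66, 69 and 63 in the cKO, against 239, 261, 245 and 262 in the controls (log2 fold change -1.90 ± 0.09, limma adjusted p = 2.19e-07). Cntn5, another, had 1475, 1235, 1367 and 1330 in the cKO, against 658, 563, 660 and 646 in the controls (log2 fold change 1.10 ± 0.07, limma adjusted p = 1.87e-06). Both were separate by group, in opposite directions. Cntn4 (-0.45, adjusted p = 0.112), Cntn6 (-0.22, adjusted p = 0.384) and Cntn1 (-0.20, adjusted p = 0.0925, all limma) did not pass. Slitrk1, Slitrk5 and Slitrk3, postsynaptic adhesion proteins that bind Ptprd or Ptprs, fell by 0.70, 0.50 and 0.24 on the log2 scale (limma adjusted p = 5e-05, 0.000515 and 0.0246). Slitrk2 (0.02), Slitrk4 (-0.14) and Slitrk6 (0.02) did not pass. Pleiotrophin (Ptn), a ligand of Ptprz1, had a log2 fold change of -0.08 and midkine (Mdk) of -0.07, and neither passed.

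The type IIa or LAR family sits on axons and presynaptic terminals and binds Slitrk proteins and proteoglycans. By limma 0 of its 3 members passed, beside 6.66% of all tested genes, so this count says little about the family. It had 0 members at an unadjusted p under 0.05 and 0 in the authors' deposited table. Ptprs had values of 24470, 22331, 21921 and 22629 in the cKO, against 20961, 21738, 22058 and 22460 in the controls. These ranges overlapped, with a log2 fold change of 0.07 ± 0.04 (limma adjusted p = 0.454). Ptprf had a log2 fold change of 0.04 ± 0.04 and Ptprd of -0.01 ± 0.07. Within the family Ptprs made up 76.8% of the RPKM in the cKO and 76.2% in the controls.

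Type III receptors have a single catalytic domain. By limma 0 of 5 passed, beside 6.66% of all tested genes, so this count too says little. Among them 1 had an unadjusted p under 0.05, and 0 passed in the authors' deposited table. Ptpro, a neuronal receptor that acts on Eph receptors, had 2404, 2492, 2320 and 2048 in the cKO, against 2477, 2692, 2651 and 2746 in the controls. Only 1 control value lay within the cKO range, and the log2 fold change was -0.19 ± 0.06 (limma adjusted p = 0.0826). Ptprb, the receptor phosphatase of endothelium, had values of 617, 467, 406 and 517 in the cKO, against 559, 417, 409 and 487 in the controls (log2 fold change 0.10 ± 0.13, limma adjusted p = 0.763). Of 13 endothelial and mural markers 0 passed by limma, beside 6.66% of all tested genes. Among them 1 had an unadjusted p under 0.05, and 0 passed in the authors' deposited table. Their summed RPKM was 99.7 to 118 in the cKO and 96.9 to 105 in the controls, with none at 0. Ptprb was highest of its group in replicate 1 of each genotype, and the marker sum was highest in cKO replicate 4 and control replicate 2. Cldn5 (30.9 RPKM) and Rgs5 (18.2 RPKM) were the largest parts of that sum. Flt1 and Pdgfrb were highest in replicate 1 of each genotype, as Ptprb was, and the other markers were not. The part of vascular cells in the Ptprb values was not tested. Ptprj had a log2 fold change of 0.08 ± 0.09. Ptprh had 38, 75, 97 and 83 in the cKO, against 86, 56, 51 and 43 in the controls, a wide overlap (0.28 ± 0.28), and Ptprq stayed between 10 and 21 in all libraries.

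Of the type IV receptors, Ptpre rose and Ptpra did not pass. Ptpre occurs in blood-derived cells, endothelium and nerve. It held 104, 127, 109 and 112 in the cKO, against 87, 90, 84 and 82 in the controls, without overlap. Its log2 fold change was 0.39 ± 0.10 (SE; limma adjusted p = 0.0424), and the call was lost when any 1 of the 8 libraries was left out (adjusted p between 0.0528 and 0.164). Ptpra, an activator of Src family kinases, had means of 4581 ± 158 in the cKO and 4509 ± 130 in the controls (SD, n = 4 each; log2 fold change 0.02 ± 0.04, limma adjusted p = 0.812). The secretory granule receptors Ptprn and Ptprn2, which are thought to lack activity toward phosphotyrosine, differed in sign and neither passed. Ptprn had 301, 340, 361 and 328 in the cKO, against 369, 472, 372 and 411 in the controls, which did not overlap (log2 fold change -0.28 ± 0.09, limma adjusted p = 0.0919). Ptprn2 had a log2 fold change of 0.13 ± 0.05 (limma adjusted p = 0.182). Ptprr, a phosphatase with a kinase interaction motif that binds ERK, was at -0.11 ± 0.07 (limma adjusted p = 0.48).

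Among the 14 non-receptor genes 1 rose, Ptpn6, and 0 fell, a share of 7.14% beside 6.66% of all tested genes. Ptpn6 encodes the SH2 domain phosphatase SHP1 of blood-derived cells, which include microglia. Values were 61, 53, 56 and 52 in the cKO, against 37, 34, 25 and 36 in the controls, with no overlap. The means were 55.5 ± 4.04 in the cKO and 33.0 ± 5.48 in the controls (SD, n = 4 each), a log2 fold change of 0.75 ± 0.16 (SE; limma adjusted p = 0.0155). The call held in 19 of 20 alternatives and missed without control replicate 3 and cKO replicate 4 together (0.65, adjusted p = 0.0517). In the annotation 6.96% of its exon bases are shared with an antisense transcript, and the sources used here do not say if counting used strand. Ptpn11, the widely expressed relative SHP2 that carries growth factor signals to Ras, had 5063, 4824, 4696 and 4936 in the cKO, against 4854, 4859, 4852 and 4921 in the controls (log2 fold change 0.00 ± 0.03, limma adjusted p = 0.986).

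Of 12 microglial markers 11 rose and 0 fell, with a median log2 fold change of 0.80 beside 0.006 for all tested genes, Aif1 being the exception (0.51, limma adjusted p = 0.123). Their summed RPKM was 83.4, 78.8, 85.5 and 66.9 in the cKO, against 46.0, 43.8, 40.8 and 48.3 in the controls, and none was at 0. The ratio of the mean sums was 1.76, and the ratio of the mean Ptpn6 values 1.68 and of the mean Ptpre values 1.32. Control replicate 3 was lowest of the controls and cKO replicate 4 lowest of the cKO in both the marker sum and Ptpn6. For Ptpn6 in cKO replicate 4 this was by a small margin (52, against 53 in cKO replicate 2). The highest libraries differed. They were cKO replicate 3 and control replicate 4 for the marker sum, and replicate 1 of each group for Ptpn6. Ptpre was lowest in cKO replicate 1 (104) and control replicate 4 (82). The part of these cells in the Ptpn6 and Ptpre values was not tested. Ptprc, the leukocyte receptor left out by the rule, had 51, 36, 52 and 43 in the cKO, against 33, 25, 25 and 31 in the controls (log2 fold change 0.65 ± 0.18, limma adjusted p = 0.05001, just over the threshold).

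**Figure D3:**
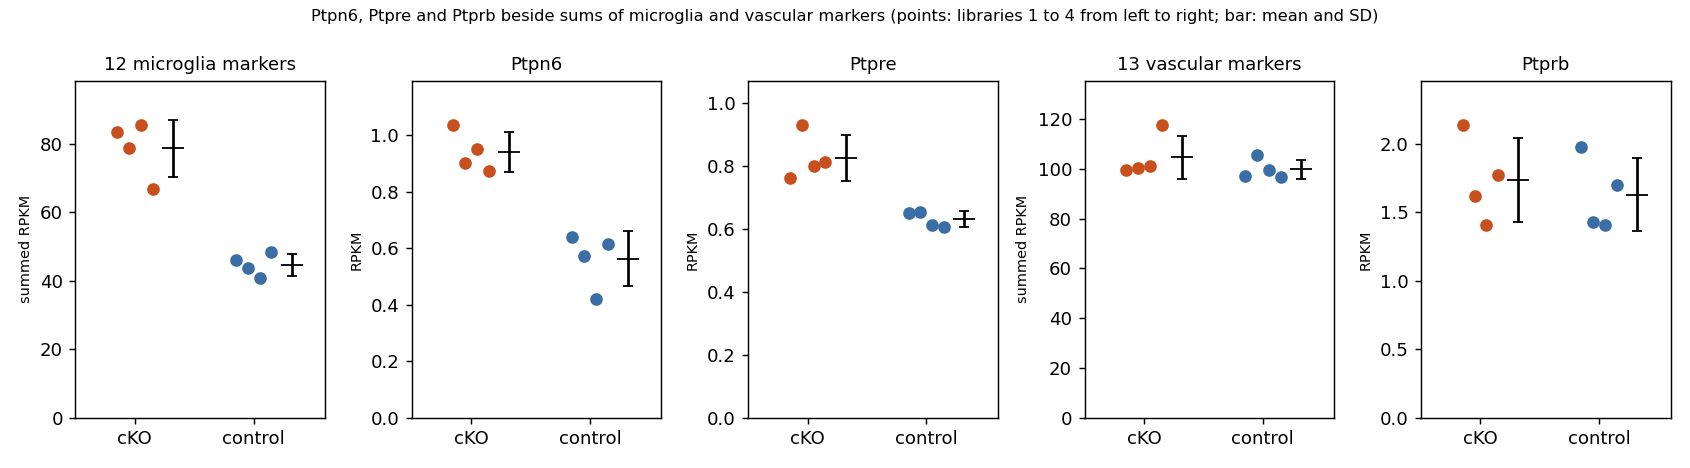
RPKM (y axis) of Ptpn6, Ptpre and Ptprb and the summed RPKM of 12 microglia and 13 vascular markers in each library, cKO left of control, with the mean and SD (n = 4) beside the points. The microglia sum, Ptpn6 and Ptpre are separate by group, while the vascular sum and Ptprb overlap.

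The other non-receptor genes did not pass. Ptpn4, a FERM and PDZ domain phosphatase linked to glutamate receptors, had 1399, 1135, 1175 and 1198 in the cKO, against 1089, 945, 1044 and 1086 in the controls. These did not overlap, and the log2 fold change was 0.23 ± 0.07 (limma adjusted p = 0.0728). Ptpn1 (PTP1B, a phosphatase of the insulin receptor) was at -0.04 ± 0.04, Ptpn9 at 0.08 ± 0.04 and Ptpn12, the PEST family phosphatase of focal adhesions, at 0.01 ± 0.06. Ptpn2, Ptpn13, Ptpn21 and Ptpn23 lay between -0.04 and 0.03. Ptpn3, Ptpn14, Ptpn18 and Ptpn22 had log2 fold changes from 0.06 to 0.30 with SE from 0.15 to 0.41. Ptpn5, left out by the rule, had a log2 fold change of -0.05 (limma adjusted p = 0.692).

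Of the 22 dual-specificity genes 2 fell and 0 rose, both of them atypical members without a MAP kinase binding domain. These are 9.09% of the class, near the 6.66% of all tested genes. Dusp26, known from brain and neuroendocrine tissue, lies on chromosome 8 (31089471 to 31097047, plus strand). It held 1029, 1039, 1044 and 1097 in the cKO, against 1370, 1364, 1282 and 1320 in the controls. The 2 ranges were far apart relative to their spread, with means of 1052 ± 30.5 in the cKO and 1334 ± 41.2 in the controls (SD, n = 4 each). The log2 fold change was -0.34 ± 0.04 (SE; limma adjusted p = 0.000332), and the call held in the 20 alternatives. Dusp14, studied mainly in T cells (chromosome 11, 84048041 to 84069261, minus strand) had 57, 62, 58 and 46 in the cKO, against 87, 71, 85 and 81 in the controls, without overlap. Its log2 fold change was -0.54 ± 0.13 (SE; limma adjusted p = 0.0324). That call was lost without cKO replicate 1, 3 or 4 or control replicate 1, 3 or 4 (adjusted p between 0.0544 and 0.111). The other 10 atypical genes (Dusp3, Dusp11, Dusp12, Dusp15, Dusp18, Dusp19, Dusp22, Dusp23, Dusp27 and Dusp28) lay between -0.16 and 0.23 on the log2 scale. Dusp11, an RNA phosphatase, was at -0.01 ± 0.04.

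**Figure D4:**
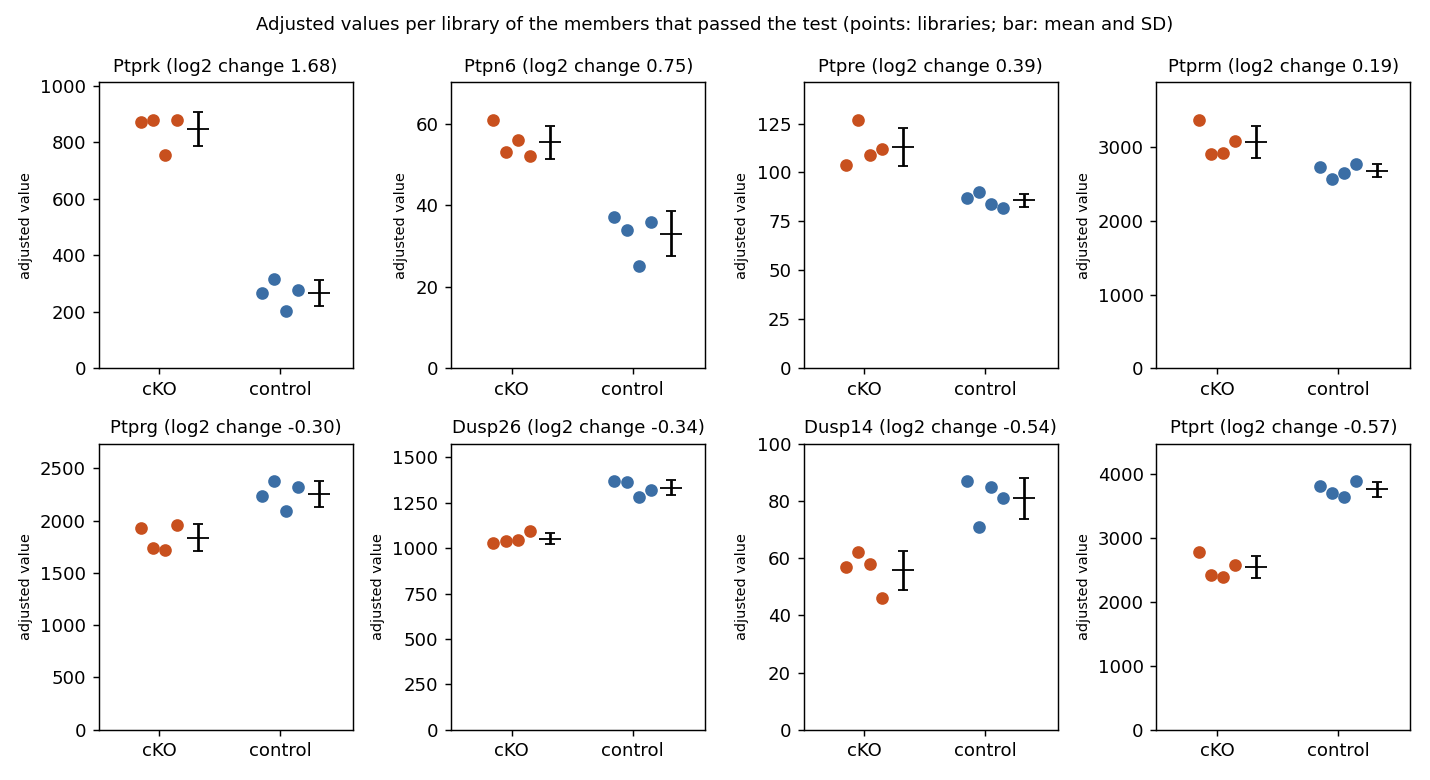
Adjusted value per library (y axis, from 0) of the 8 members past the test, cKO left of control, with the mean and SD (n = 4) beside the points. In each panel all 4 cKO points lie on one side of the 4 control points, from Ptprk (1.68) to Ptprt (-0.57).

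None of the 10 MAP kinase phosphatases passed by limma, with 2 at an unadjusted p under 0.05 and 0 in the authors' deposited table. With 6.66% of all tested genes called, 0 of 10 says little about the class. The nuclear, inducible members Dusp1, Dusp2 and Dusp4 had overlapping groups. Dusp1 had 715, 772, 819 and 795 in the cKO, against 738, 843, 813 and 779 in the controls (log2 fold change -0.03 ± 0.06, limma adjusted p = 0.827). Dusp4 was at 0.06 ± 0.07 and Dusp2 at 0.12 ± 0.10. Dusp5 had values of 4 to 12 in the cKO and 9 to 16 in the controls (-0.79 ± 0.34, limma adjusted p = 0.229), near the lower end of what the libraries measure. Dusp6, the cytoplasmic ERK phosphatase induced by FGF signalling, had 455, 464, 430 and 392 in the cKO, against 526, 466, 465 and 499 in the controls. These groups touched without overlapping, at 464 and 465, with a log2 fold change of -0.17 ± 0.07 (limma adjusted p = 0.209). Dusp16, which acts on JNK and p38, had 398 to 447 in the cKO and 450 to 474 in the controls (-0.12 ± 0.06, limma adjusted p = 0.277), and Dusp8 was at -0.02 ± 0.04. Dusp7 and Dusp10 were at -0.03 ± 0.07 and -0.01 ± 0.16, and Dusp9 held values between 1 and 6.

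Of 13 immediate early genes, the class to which Dusp1 belongs, 8 fell and 0 rose (61.5%, beside 6.66% of all tested genes called), with a median log2 fold change of -0.56 beside 0.006 for all tested genes. Egr1 had 226, 267, 339 and 264 in the cKO, against 510, 544, 462 and 494 in the controls (log2 fold change -0.89 ± 0.11, limma adjusted p = 0.000364), without overlap. Fosl2 fell by 0.47, Nr4a1 by 0.74 and Egr3 by 0.56 on the log2 scale (limma adjusted p = 0.00126, 0.00152 and 0.00183). The other 5 did not pass, with Fos at -0.63, Fosb at -0.41, Junb at -0.27, Ier2 at 0.04 and Btg2 at 0.05. The difference between Dusp1 and these genes was not tested. Of 11 genes of ERK feedback and ERK targets, 1 rose, Spred3 (0.23 ± 0.06, limma adjusted p = 0.0441), and 0 fell. This is 9.09%, near the 6.66% of all tested genes. Etv4 was lower in every cKO library than in any control but did not pass (-0.30 ± 0.10, limma adjusted p = 0.119).

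Kinases of the pathways that these phosphatases act on were compared in the same fit. Of 24 MAP kinase cascade genes 2 rose and 1 fell (12.5%, beside 6.66% of all tested genes), with a median log2 fold change of -0.004. Map2k1, a kinase that activates ERK, had 944, 925, 901 and 873 in the cKO, against 1481, 1253, 1400 and 1364 in the controls. The groups were separate, with a log2 fold change of -0.59 ± 0.05 (limma adjusted p = 3.89e-05). Map2k2, which also activates ERK, did not pass (log2 fold change -0.03 ± 0.05, limma adjusted p = 0.837). Its mean level was 39.0 RPKM, against 19.8 for Map2k1. The scaffold gene Ksr2 rose by 0.42 ± 0.09 and Mapk8, which encodes a JNK, by 0.13 ± 0.03 (limma adjusted p = 0.0153 and 0.025). Of 30 tyrosine kinase genes, with a median log2 fold change of 0.039, 1 rose, Fgfr2 (0.26 ± 0.04), and 3 fell, which is 13.3% of them. Among these were Ptk2b, with 72, 70, 92 and 75 in the cKO against 357, 239, 281 and 274 in the controls (log2 fold change -1.88 ± 0.13), and Insrr (-2.97 ± 0.26). The limma adjusted p of Fgfr2, Ptk2b and Insrr was at most 0.00217. Of 26 other phosphatases of the superfamily, such as the Cdc25 genes and the Eya genes, 0 passed by limma, beside 6.66% of all tested genes. Among them 3 had an unadjusted p under 0.05, and 0 passed in the authors' deposited table.

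Mean levels per length ran from 0.0516 RPKM for Dusp9 to 132 RPKM for Ptprs among the 55 genes. Ptprs was the most abundant, at 135 ± 6.80 RPKM in the cKO and 129 ± 3.28 in the controls (SD, n = 4 each), above 97.6% of the tested genes. Ptprz1 followed at 93.3 ± 4.01 RPKM in the cKO and 100.2 ± 6.01 in the controls, then Ptpra at 52.3 ± 1.73 and 51.8 ± 0.88, Dusp8 at 42.9 ± 1.73 and 43.7 ± 1.53, and Ptpn11 at 35.8 ± 1.12 and 36.0 ± 0.58 (SD, n = 4 each, cKO first). The order of these 5 was the same in all 8 libraries, with no overlap of neighbouring ranges. They held between 46% and 47.1% of the summed RPKM of the members. Dusp26 was sixth, and it lay above Ptprf in 4 of the 8 libraries. These were the 4 controls, and in the 4 cKO libraries it lay below Ptprf. Of the 54 neighbouring pairs in the order, 46 had overlapping ranges and 8 did not. Receptor genes took between 54.4% and 55.8% of the members' summed RPKM, dual-specificity genes between 25.4% and 27.8% and non-receptor genes between 17.6% and 18.8%. There were 21 members at 10 RPKM or more, 22 between 1 and 10, 4 between 0.5 and 1 and 8 below 0.5. Ptprk was at 5.65 RPKM in the cKO and 1.78 in the controls, and Ptpn6 and Ptpre both averaged under 1 RPKM in each group.

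**Figure D5:**
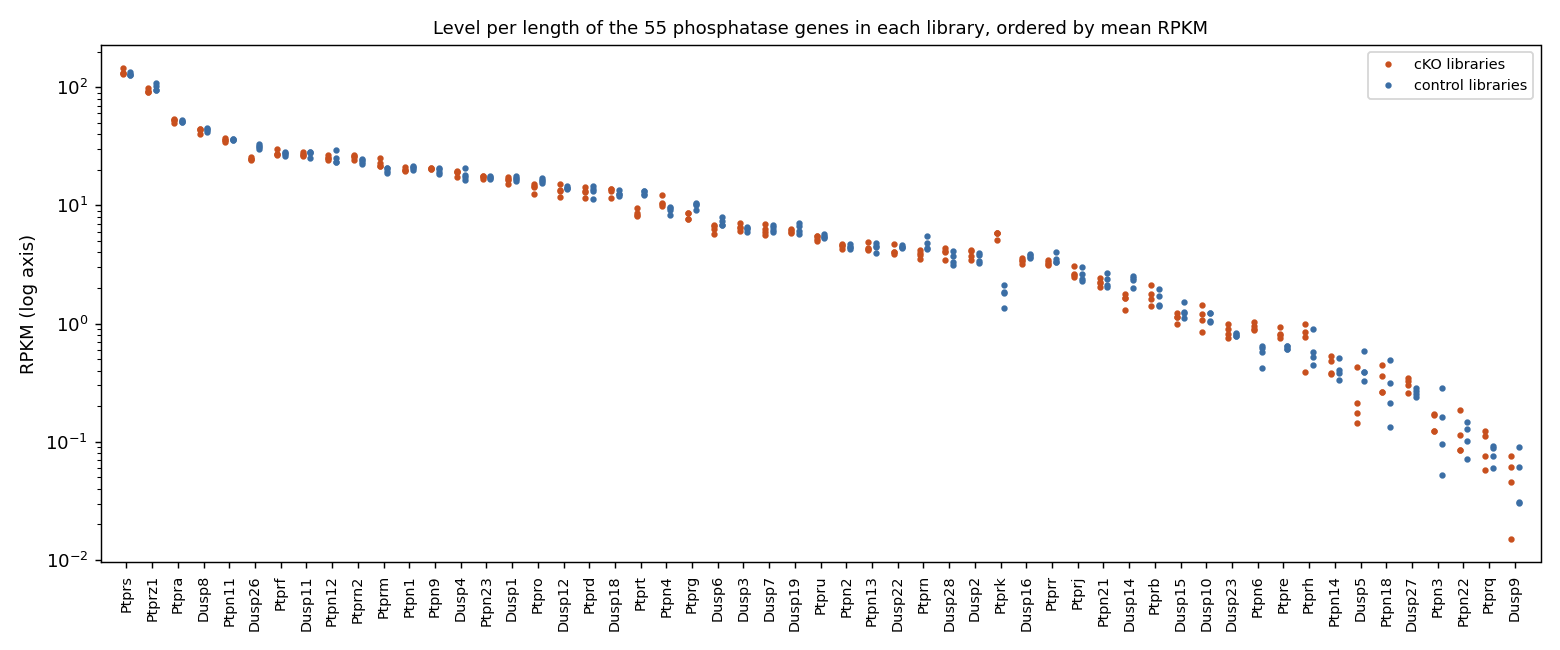
RPKM on a log axis (y) of each of the 55 members (x, ordered by mean RPKM) in the 4 cKO and 4 control libraries. Each point is a library, and the Ptprk points separate by group while those of most neighbours coincide.

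Among the longer members, cKO replicate 1 stood above the rest of its group, and genes outside the members were not examined in this way. In the cKO, replicate 1 was the highest library for 22 of the 55 members, and control replicate 1 was the highest control for 22 as well. The other libraries were highest for 7 to 18. In the 23 members above the median exon length of 5774 bases, among the 46 with a mean value of at least 50, cKO replicate 1 deviated from its group mean by a median of 0.08 on the log2 scale. The other cKO libraries were between -0.055 and -0.009 for these genes, and the controls between -0.029 and 0.043. For the 23 shorter members, cKO replicate 1 deviated by 0.004. Ptprm, with 8828 exon bases, was among the longer ones, and without cKO replicate 1 its log2 fold change was 0.15 (limma adjusted p = 0.0533). Its call was lost as well without cKO replicate 4 or any 1 control replicate. The part of this library or of gene length in these values was not tested.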

How the data were processed

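The authors' processing used STAR, featureCounts and edgeR on mm10, per the submitters' processing notes, with versions and options not given in the sources used here. Libraries were made from 1 ug of total RNA with a directional kit and sequenced as single reads of 85 bp, per the labels' protocols. The deposited columns named raw hold a score, since their upper quartiles lay between 1624 and 1635 in all 8 libraries. In 5711 genes with a mean above 1000, the smallest singular value of the within-group residuals on the natural log scale was 0.000241, against 0.0436 for the next. A direction of variation had thus been removed, which makes the printed errors smaller than they would otherwise be, and depth is unknown. The adjusted values summed to 23732455 to 24456923 per library. The deposited RPKM columns and the authors' deposited table of log2 fold changes and adjusted p-values served for levels and as an alternative. The sign of that log2 fold change is cKO over control, although the column name has the other order.

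Values were taken as log2(value + 1), keeping the 15698 genes that reached 1 in at least 4 libraries. Groups were compared with limma 3.58.1 (mean trend) in R 4.3.3, and p-values were adjusted by Benjamini-Hochberg over all genes. Fold changes understate the change of low genes. Since the values are not unadjusted read counts, no count test was run. Alternatives varied the pseudocount, filter, scaling, variance model, unit, block and libraries used. Members, lists and tests were chosen with earlier results of these data known. Named members are those past the test, and in each sub-family the most abundant and, among those with a mean of at least 50, the most changed. From each list up to 4 genes past the test with the smallest p are named. Others were named after their values were seen. Coordinates and exon overlaps are from GENCODE on GRCm38, the assembly of mm10. The labels call the samples littermate embryos without giving litters, so p-values measure the spread between these samples. The test was checked on simulated data with known changes, where its share of false calls came out somewhat above the threshold. Some genes of the lists are not reported here by name.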

Additional observations from a re-analysis of the deposited data

Results flagged for a closer look

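A total of 3 groups of values among the 26 named members (52 groups of 4 libraries) held a library far from the rest, and chance flags about 1 in 20 groups. For Ptprk, cKO replicate 3 was at 756, below 874 to 881 in the other cKO libraries, and still above every control. For Dusp8, control replicate 2 was at 4894, below 5130 to 5168 in the other controls. For Ptpn11, control replicate 4 was at 4921, above 4852 to 4859 in the other controls.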

How the results depend on the processing

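Over 20 alternatives, 8 phosphatase genes passed in the values reported, and the calls of Ptprk, Ptprt, Ptprg and Dusp26 held in all of them. With 1 residual degree of freedom fewer, for the removed direction, 5 members passed, 2 of them higher. From log2(RPKM + 0.01), 2 were higher. Leaving out 1 library gave 5 to 7 members (2 or 3 higher) and 659 to 959 genes in all, against 1045, with 659 without control replicate 4. Without control replicate 3 and cKO replicate 4 together, 4 members passed, 1 of them higher, and 610 genes. The numbers of lower members stayed at 3 or 4 throughout. The cause of these losses was not tested, beyond the smaller number of libraries. No called member changed sign in any alternative.

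Replicate numbers are shared between groups but do not pair the samples. Correlations of same-numbered deviations were 0.23, -0.027, -0.109 and -0.534. With the replicate block, 7 members and 1199 genes passed, Ptpn4 (adjusted p = 0.0127) gained a call, and Dusp14 (0.0558) and Ptpre (0.0717) lost theirs. Scaling moved the median log2 fold change of all genes by at most 0.0079. Low members such as Dusp5, Dusp9, Ptpn22 and Ptprq are limited by their values, and small changes in them could be missed here.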
